A study of Mus musculus with 168 samples.

Results

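Cortex of mice heterozygous for a huntingtin (Htt) knock-in allele with a nominal 140 CAG repeats (Q140) was compared at 6 months with that of mice heterozygous for a 20-repeat allele (Q20). The comparison took every library whose title gives those alleles and that age, 8 a side and 16 of the 168 in the series, with 4 females and 4 males in each group. Both groups were C57BL/6 mice with 1 knocked-in and 1 unmodified Htt copy, so that the controls carried a knock-in as well, with a repeat in the normal range. Messenger RNA was polyA-selected from flash-frozen cortex, and the authors deposited estimated counts per gene, which were rounded here. All 7 genotypes of that age (wild type, Q20, Q80, Q92, Q111, Q140 and Q175, 56 libraries) entered the fit and share its estimate of the spread. The labels state that mice lived with cage mates of their own allele, and the library names form a separate number block for each allele at this age. Allele, housing and library block therefore cannot be told apart. Nothing in the labels says more about the source of a replicate than sex and number, so the p-values measure the spread between these libraries.

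Huntington's disease is caused by a lengthened CAG repeat in the first exon of HTT, which extends a glutamine tract in the huntingtin protein. Neurons of the striatum are the most affected, and the cortical neurons that project to them are affected too. Knock-in mice carry the repeat in their own Htt gene under its own promoter, and transcript levels in their striatum and cortex are known to shift with repeat length and age.

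The 16 libraries held between 33835811 and 41814120 counts, and mitochondrial genes took 9.17% to 10.29% of them in either group. Cortical markers stood at similar levels on both sides. Slc17a7, the vesicular glutamate transporter of cortical projection neurons, had a median of 1012 CPM (counts scaled to the library's TMM-adjusted total) in Q140 and 1074 in Q20, and Tbr1, a transcription factor of deep-layer neurons, had medians of 96.3 and 93.3 CPM. Other tissues were also present: striatal markers were readable in all 16 libraries (Drd1 at 16.4 to 26.6 CPM), and 4 libraries held much more choroid plexus RNA than the other 12, as read from Ttr. These were Q140 females 1 and 3 and Q20 female 2 and male 2. Of 51 named genes called outside the liver transcripts, 17 were not called without these 4 libraries, and their values without them stand beside each. In bulk tissue, fewer cells of a type and less RNA per cell cannot be told apart.

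Transcripts of liver stood apart from all other genes. Albumin (Alb), the main plasma protein made by hepatocytes, was read at 20.1 to 355 CPM in the 8 Q140 libraries, with a median of 57.4, while 7 Q20 libraries held next to none and Q20 male 2 held 5.26. The groups did not overlap. The summed level of a list of 46 liver transcripts ran from 93.0 to 807 CPM in Q140 and from 35.1 to 61.0 CPM in Q20, and the mean log2 sum was 2.32 higher in Q140 (exact permutation test, two-sided, p = 0.00016, the smallest that 8 against 8 libraries can give). Of the 45 list members tested, 44 rose in Q140 and none fell, against 1.64% higher over all genes. Calls here are by the edgeR quasi-likelihood test at an adjusted p under 0.05 unless said otherwise. That liver transcripts were high in these libraries was known before the list was made. The test of the sum and this count therefore describe them and are no independent support. Members near 0 in Q20 passed the filter on low counts through groups where they were high. Cps1, the first enzyme of the urea cycle, stood at 1.52 to 13.2 CPM against 0.27 to 0.61 CPM, and the apolipoprotein gene Apoa2 at 1.74 to 16.8 against 0.16 to 0.83 CPM. Gc, the vitamin D carrier of plasma, was read at 1.59 to 19.3 CPM against 0 to 0.36 CPM. Hpd and Tat, enzymes of tyrosine breakdown, reached 6.47 and 6.33 CPM in Q140 and at most 0.21 CPM in any Q20 library, and Itih4, a plasma protein, stood at 0.72 to 8.08 against 0.02 to 0.19 CPM. The same transcripts were high in the Q92 libraries of this age (summed level 79.8 to 301 CPM), and in neither Q140 nor Q20 at 2 or 10 months, where the sum stayed between 27.8 and 44.9 CPM.

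**Figure D1:**
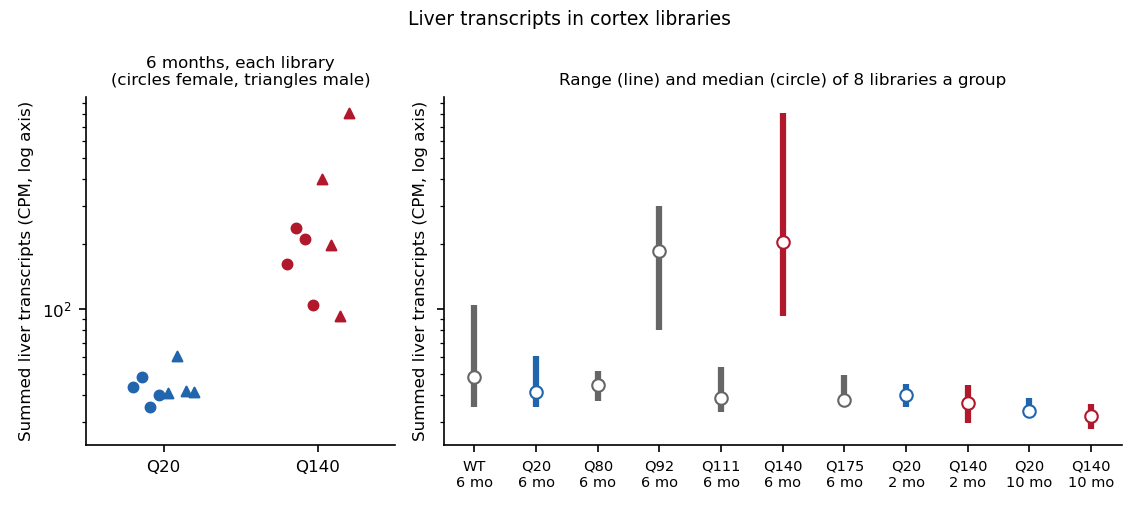
Summed level of 46 liver transcripts in CPM on a log axis, per library of Q20 and Q140 at 6 months on the left, and as range and median of 8 libraries for each genotype at 6 months and for Q20 and Q140 at 2 and 10 months on the right. All 8 Q140 libraries of 6 months (93.0 to 807 CPM) lie above all 8 Q20 libraries (35.1 to 61.0 CPM), and Q92 of 6 months (79.8 to 301 CPM) is the other genotype that lies above the Q20 range in every library.

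Over all genes, 404 of 17611 tested (2.29%) were called between Q140 and Q20, 288 higher in Q140 (1.64%) and 116 lower (0.659%). Many of the higher genes outside the list were liver genes too: all 12 higher genes with the smallest p outside the list, among them the bile salt pump Abcb11, the major urinary protein Mup18 and the antithrombin gene Serpinc1, followed Alb from library to library. Called genes higher in Q140 were therefore set apart where their log2 CPM followed that of Alb, with a Pearson r of at least 0.4 over the 152 other libraries of the series, or of at least 0.15 there and at least 0.6 over the 8 Q140 libraries. These limits were chosen after the values were seen. They set apart 124 called genes beside the 44 of the list, of which 103 met the first limit. With these 168 genes and the 1 list member that was not called left out, 236 of 17442 genes (1.35%) were called, 120 higher in Q140 (0.688%) and 116 lower. The rest of the results is about these 236 genes.

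Differences outside the liver transcripts were small. The median log2 difference was 0.15 among the 120 higher genes and -0.16 among the 116 lower ones, and 49 of the higher and 42 of the lower genes differed by less than 1.1-fold. The 8 Q140 and 8 Q20 libraries did not overlap for 22 of the higher and 14 of the lower genes, against 0.806% of all genes tested, liver transcripts included (142 of 17611). The number of calls depended on single libraries: it was 148 without Q20 female 4, 148 without Q20 male 3 and 156 without Q20 male 4. It was also 148 without Q140 males 1 and 4, the pair of Q140 libraries with the most Alb, and 274 without the 4 libraries rich in Ttr. Genes were set apart as following Alb only where they were called in the main fit of Q140 against Q20. A gene called only in another fit therefore counts as outside the liver transcripts unless it is on the list. With the mean log2 level of the liver list in each library as a covariate none of the 236 was called (edgeR; 797 of all genes had an unadjusted p under 0.05 in that fit). The liver transcripts lost their calls in that fit too. All 8 Q140 libraries lay above all 8 Q20 libraries in summed liver level, so that this fit cannot tell liver level and allele apart. Against wild type in place of Q20, 5856 genes outside the liver transcripts were called, 142 of the 236 among them. The 8 wild-type libraries stood apart in that mitochondrial genes took 11.7% to 12.3% of their counts. Their library names also have another form than those of Q20 and Q140 of this age. The part of either in the number of calls against wild type was not tested. Against Q92, whose libraries also held liver transcripts, 175 were called, 42 of the 236 among them.

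Htt itself was lower in Q140. Its level was 179 to 199 CPM in Q140 with a median of 185, and 191 to 222 CPM in Q20 with a median of 215. The groups overlapped through Q140 female 2 and male 2 (199 and 193 CPM) and Q20 males 3 and 4 (191 and 194 CPM). The log2 difference was -0.17 ± 0.04 (SE; edgeR, adjusted p = 0.0035), and it was not called without the 4 libraries rich in Ttr (adjusted p = 0.12). Counts per gene sum both alleles. Among the genotypes of 6 months, mean Htt stood at 228 ± 10.3 CPM (SD, n = 8) in Q92, 228 ± 5.22 in Q80, 209 ± 11.7 in Q20, 209 ± 9.25 in Q111, 202 ± 3.79 in wild type, 186 ± 6.78 in Q140 and 155 ± 16.1 in Q175. Q92 and Q80 did not differ beyond their SD, nor did Q20, Q111 and wild type beyond the SD of Q20.

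The higher genes are given first. Enpp6, a choline phosphodiesterase that marks newly forming oligodendrocytes, stood at 5.25 to 6.30 CPM in Q140 (median 5.87) and 3.52 to 4.90 CPM in Q20 (median 4.10). No library of either group reached the range of the other. Its log2 difference was 0.48 ± 0.07 (edgeR, adjusted p = 6.95e-06), the smallest p of the 236 genes. Chdh, which oxidises choline to betaine aldehyde, stood at 7.32 to 10.2 CPM against 5.52 to 7.31 CPM, a log2 difference of 0.41 ± 0.07 (edgeR, adjusted p = 8.12e-05). Plpp2, a lipid phosphate phosphatase, stood at 2.38 to 3.26 against 1.94 to 2.58 CPM (0.44 ± 0.08). The lipid transporter gene Abca8a stood at 15.2 to 17.4 against 10.6 to 13.3 CPM (0.34 ± 0.06), again without overlap.

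The list of new oligodendrocyte and precursor markers held 2 called genes among 15 tested, both higher (against 1.64% of all genes), and 10 of the 15 had a positive difference, with a median of 0.08 where that of all genes was near 0. The second was Neu4, a sialidase of the oligodendrocyte lineage, at 8.93 to 10.9 against 8.09 to 9.14 CPM (0.23 ± 0.06, edgeR adjusted p = 0.017). Gpr17, a receptor of cells that are about to differentiate, and Olig2, the lineage transcription factor, did not pass (0.15 and 0.17). Among 20 markers of myelinating oligodendrocytes, none rose and 1 fell, where 0.659% of all genes were lower. It was Car2, the carbonic anhydrase of these cells, at 148 to 165 CPM in Q20 and 126 to 149 CPM in Q140 (-0.15 ± 0.04, edgeR adjusted p = 0.0084). With the length measure described below as a covariate Neu4 was not called (edgeR adjusted p = 0.13). Where a token of the library names entered the fit, neither Neu4 nor Car2 was called (edgeR adjusted p = 0.076 and 0.19). Slc45a3 and Il17rb, named for the size of their differences, were low in level and overlapped between the groups. Slc45a3, a sugar transporter gene with a known role in oligodendrocytes, stood at 0.99 to 1.68 against 0.58 to 1.32 CPM (0.56 ± 0.16, edgeR adjusted p = 0.040). Il17rb, a cytokine receptor gene, stood at 1.23 to 2.14 against 1.02 to 1.48 CPM (0.41 ± 0.10, edgeR adjusted p = 0.014). Without the 4 libraries rich in Ttr neither was called (edgeR adjusted p = 0.090 for Slc45a3 and 0.084 for Il17rb). The same held without the 2 Q140 libraries with the most Alb (0.14 and 0.076), with the name token (0.068 and 0.070) and with only the 2 groups fitted (0.066 and 0.097). Il17rb was not called with the length measure either (edgeR adjusted p = 0.056). Slc45a3 was not called in 9 of the 16 fits that left out 1 library (adjusted p up to 0.093, without Q20 female 1).

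**Figure D2:**
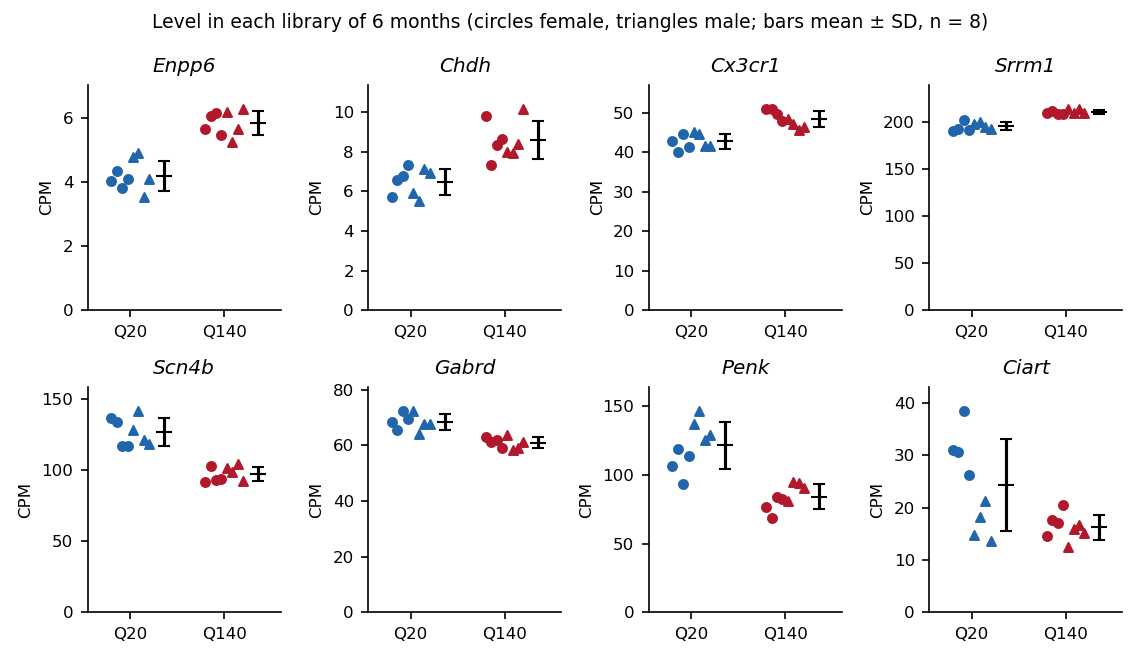
Level of 8 genes in CPM in each library of Q20 and Q140 at 6 months, with the mean and SD of 8 libraries as bars. The Q140 libraries lie above all Q20 libraries for Enpp6, Chdh, Cx3cr1 and Srrm1 and below them for Scn4b and Gabrd, while single libraries of Penk and many of Ciart overlap, and the high Q20 values of Ciart are those of females.

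Other genes among the 12 higher ones with the smallest p had no common role in the lists. Col12a1, a fibril-associated collagen, stood at 25.2 to 32.1 against 22.2 to 25.4 CPM (0.28 ± 0.05). Cdr1, from a locus known for a circular RNA that binds microRNAs, stood at 23.6 to 27.8 against 18.2 to 21.6 CPM (0.30 ± 0.06), and the polyA-selected counts cannot tell a linear from a circular form. Plxnb3, a semaphorin receptor, rose by 0.24 ± 0.05, Slc25a27, a mitochondrial carrier, by 0.11 ± 0.02, Focad by 0.14 ± 0.03 and Nrbp2 by 0.15 ± 0.03. Focad and Slc25a27 had narrow ranges in both groups (58.6 to 62.0 against 50.6 to 58.0 CPM, and 53.8 to 57.1 against 49.1 to 54.3 CPM).

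Of the glial lists, microglial markers had 2 of 20 tested genes higher and none lower, and 17 of the 20 had a positive difference (median 0.06), where 1.64% of all genes were higher and 0.688% of those outside the liver transcripts. Cx3cr1, the fractalkine receptor by which microglia sense neurons, stood at 45.8 to 51.1 CPM in Q140 and 40.2 to 45.1 CPM in Q20, without overlap (0.18 ± 0.04, edgeR adjusted p = 0.0029). Itgam, the integrin chain CD11b, stood at 30.2 to 34.3 against 26.0 to 32.3 CPM (0.19 ± 0.05, edgeR adjusted p = 0.0091). P2ry13, a purinergic receptor, had a difference of 0.31 and missed the threshold (edgeR adjusted p = 0.053). Without the 4 libraries rich in Ttr, Cx3cr1 missed it as well (edgeR adjusted p = 0.052), and Itgam missed it with the length measure as a covariate (edgeR adjusted p = 0.11). Complement C3 was called in the list of gliosis genes, and it is also a liver product that was set apart here with the genes that followed Alb. Of 18 astrocyte markers, S100b alone was called (against 1.64% of all genes higher), at 121 to 149 against 115 to 125 CPM (0.14 ± 0.03, edgeR adjusted p = 0.0089). This single call is not read as a result about the list. No gene of 16 endothelial and pericyte markers was called.

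Among the lower genes, several encode parts of channels, pumps and synapses. Scn4b, the auxiliary sodium channel subunit of fast-spiking and striatal neurons, stood at 91.6 to 104 CPM in Q140 (median 96.4) and 117 to 142 CPM in Q20 (median 125). The groups did not overlap, and the log2 difference was -0.38 ± 0.07 (edgeR, adjusted p = 0.00014). Gabrd, the delta subunit of extrasynaptic GABA-A receptors, stood at 58.5 to 63.6 against 64.2 to 72.3 CPM (-0.17 ± 0.03, edgeR adjusted p = 0.00022). Atp1b1, the beta subunit of the sodium pump, stood at 1164 to 1232 against 1256 to 1380 CPM (-0.11 ± 0.02), and Camk2b, the beta chain of the calcium/calmodulin kinase of synapses, at 669 to 724 against 722 to 780 CPM (-0.09 ± 0.02). Gabrd and Atp1b1 did not overlap between the groups, and Camk2b did by a small margin.

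Cytoskeletal genes were among the lower 12 with the smallest p. Actr3b, a subunit of the actin-branching Arp2/3 complex in brain, stood at 57.9 to 67.6 against 65.6 to 76.6 CPM (-0.19 ± 0.03, edgeR adjusted p = 7.8e-05, the smallest p of the lower genes). Tuba8, an alpha-tubulin, stood at 10.4 to 13.05 against 11.2 to 16.3 CPM (-0.32 ± 0.06), and Tmod1, which caps actin filaments, at 55.5 to 59.4 against 60.7 to 69.1 CPM (-0.14 ± 0.03). Tcap, a titin-binding protein best known from muscle, was low at 2.38 to 3.05 against 2.82 to 5.21 CPM (-0.51 ± 0.10). The remaining ones were Ptprv, a tyrosine phosphatase gene at 2.47 to 3.35 against 4.41 to 6.13 CPM (-0.79 ± 0.16), Sec14l1 (-0.16 ± 0.03), the orphan receptor gene Gpr153 (-0.23 ± 0.05) and Ciart, described below. Ptprv, Sec14l1 and Gpr153 did not overlap between the groups. Lgr6, a receptor for R-spondins, had a difference of -0.88 ± 0.24 with overlap (1.54 to 3.07 against 2.24 to 7.39 CPM), and Fam83d, a spindle protein, had -0.80 ± 0.22 (0.44 to 1.29 against 0.82 to 1.91 CPM). Neither was called without the 4 libraries rich in Ttr (edgeR adjusted p = 0.069 for Lgr6 and 0.064 for Fam83d), nor in 6 and 7 of the 16 fits that left out 1 library.

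Signalling, neuropeptide and interneuron genes were lower where they were called. Of 37 tested genes of cAMP, calcium and opioid signalling, 3 were lower and none higher (against 0.659% lower of all genes): Camk2b, Arpp21 and Penk. Arpp21, a cAMP-regulated phosphoprotein of striatum and cortex, stood at 357 to 415 against 404 to 439 CPM (-0.11 ± 0.03, edgeR adjusted p = 0.012), and it was not called without Q140 male 4, its lowest library (adjusted p = 0.068), nor without Q140 males 1 and 4 (adjusted p = 0.13). Penk, which encodes the enkephalins, stood at 68.6 to 95.2 CPM in Q140 (median 83.5) and 93.7 to 147 CPM in Q20 (median 122), a log2 difference of -0.53 ± 0.13 (edgeR, adjusted p = 0.014). A single Q20 library, female 3, lay within the Q140 range. Penk was not called without the 4 libraries rich in Ttr (edgeR adjusted p = 0.098), without the 2 Q140 libraries with the most Alb (0.051) or with the length measure as a covariate (0.068). Of 24 interneuron markers, 18 had a negative difference (median -0.11) and 3 were called lower, against 0.659% of all genes. These were the peptide gene Npy (48.7 to 52.8 against 50.04 to 61.0 CPM, -0.14 ± 0.04), the corticotropin-releasing hormone gene Crh (2.39 to 3.09 against 3.09 to 4.81 CPM, -0.35 ± 0.09) and the transcription factor gene Dlx1 (36.5 to 49.0 against 42.6 to 56.9 CPM, -0.25 ± 0.07). Gad1, which makes GABA, stood at 331 to 403 against 355 to 448 CPM and did not pass (-0.16 ± 0.05). None of the 3 interneuron genes was called without the pair of Q140 libraries with the most Alb (adjusted p from 0.053 to 0.16) or with the length measure (adjusted p from 0.16 to 0.18). Without the 4 libraries rich in Ttr, Crh and Dlx1 were not called (adjusted p = 0.098 and 0.13). Of the 16 fits that left out 1 library, Dlx1 was not called in 11 (adjusted p up to 0.11, without Q20 male 1), Crh in 6 (up to 0.093, without Q20 male 4) and Npy in 4 (up to 0.071, without Q20 female 3).

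Markers of other tissues are given beside these genes. Scn4b and Penk are also 2 of the 22 striatal projection neuron markers, of which 18 had a negative difference and no other was called. Their summed level, Penk and Scn4b included, was 1172 to 1337 CPM in Q140 (median 1235) and 1125 to 1566 CPM in Q20 (median 1412), 0.16 lower on the mean log2 scale (exact permutation test, two-sided, p = 0.013; adjusted over the 7 lists of other tissues, 0.046). The defining markers Drd2 and Adora2a, dopamine and adenosine receptors of these neurons, stood at 4.18 to 6.68 against 2.88 to 9.09 CPM and 9.81 to 15.2 against 10.7 to 24.3 CPM. The sum of 14 thalamic markers was lower by 0.11 (exact permutation test, p = 0.020, adjusted p = 0.048). Of its members 8 had a negative and 6 a positive difference, with a median of -0.01, and none was called. The sums of meningeal, hippocampal, choroid plexus and blood markers had adjusted p of 0.34 to 0.91. The 7 lists include that of liver (exact permutation test, p = 0.00016), whose small p lowers the adjusted p of the others. An adjustment without the liver list was not run, so the striatal and thalamic sums are not read as passing 0.05. No list of other tissues was at 0. The part of a different share of striatum or thalamus in the values of Penk and Scn4b was not tested.

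Few other genes of ion channels and receptors were called. Of 54 potassium channel genes, the auxiliary subunit Kcnab3 (53.9 to 71.0 against 62.5 to 77.5 CPM, -0.21 ± 0.05) and the inward rectifier Kcnj4 (94.9 to 107 against 103 to 121 CPM, -0.16 ± 0.04) were lower, against 0.659% of all genes, and none was higher. Neither was called with the length measure as a covariate (edgeR adjusted p = 0.061 and 0.083). Scn4b was the only one called of 26 sodium and calcium channel genes, and Gabrd the only one of 16 genes of GABA receptors and transport. None of 24 glutamate receptor genes, 22 synaptic vesicle genes, 12 glutamatergic neuron markers, 12 upper layer markers and 15 deep layer markers was called.

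The stress response list had 1 gene each way among 24, where 1.64% of all genes were higher and 0.659% lower. These single calls are not read as a result about the list. Psat1, an enzyme of serine synthesis, was higher (113 to 121 against 102 to 112 CPM, 0.10 ± 0.03). Atf4, the transcription factor that is known to drive Psat1, was lower (102 to 117 against 111 to 131 CPM, -0.13 ± 0.04). Neither was called without the 2 Q140 libraries with the most Alb (edgeR adjusted p = 0.080 and 0.14), with the length measure (0.097 and 0.24) or with the name token (0.16 and 0.094). Psat1 was not called without the 4 libraries rich in Ttr either (adjusted p = 0.068), and of the 16 fits that left out 1 library Psat1 was not called in 5 (up to 0.074, without Q20 female 2) and Atf4 in 9 (up to 0.12, without Q20 female 4). No gene was called among 20 chaperone genes, 25 cholesterol synthesis genes, 25 interferon-stimulated genes, 16 p53 targets, 12 mismatch repair genes and 16 neurotrophin genes. Immediate early genes, which neurons switch on within minutes of firing, had a negative difference in 22 of 22 members (median -0.33), and none passed. Egr2 stood at 1.79 to 15.97 against 9.39 to 22.8 CPM (-0.78 ± 0.32, edgeR adjusted p = 0.20) and Egr1 at 138 to 393 against 239 to 447 CPM (-0.35 ± 0.18, edgeR adjusted p = 0.32). At 10 months the list's median was 0.21.

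Clock genes were lower where they were called. Of 16 clock genes, 4 were lower and none higher, with a median difference of -0.13, where 0.659% of all genes were lower. Ciart, a repressor within the circadian loop, stood at 12.4 to 20.5 CPM in Q140 (median 16.2) and 13.6 to 38.4 CPM in Q20 (median 23.7), a log2 difference of -0.54 ± 0.11 (edgeR, adjusted p = 0.0018). The 4 Q20 females, at 26.2 to 38.4 CPM, lay above every other library, and the 4 Q20 males, at 13.6 to 21.2 CPM, lay within or near the Q140 range. Dbp, a transcription factor that drives daily output genes, stood at 45.9 to 70.3 against 48.8 to 88.0 CPM (-0.32 ± 0.08, edgeR adjusted p = 0.0094), and here too the 4 Q20 females, at 78.1 to 88.0 CPM, lay above all others. Nr1d1, the REV-ERB alpha receptor, stood at 105 to 118 against 113 to 148 CPM (-0.22 ± 0.06, edgeR adjusted p = 0.017), and Bhlhe41, a repressor of the loop, at 29.5 to 33.9 against 30.7 to 42.9 CPM (-0.26 ± 0.06, edgeR adjusted p = 0.0034). The activators of the loop had small differences, with 0.05 for Arntl and 0.08 for Npas2, neither called. Per1 (-0.38) and Bhlhe40 (-0.44) did not pass either. Without the 4 libraries rich in Ttr, only Dbp of these 4 was called (adjusted p of the others 0.052 to 0.094). With the length measure Dbp was not called (edgeR adjusted p = 0.097), and with only the 2 groups fitted Ciart was not (0.078). Nr1d1 was not called without the 2 Q140 libraries with the most Alb (0.060), nor in 2 of 16 fits without single libraries (up to 0.053, without Q20 female 3). The hour at which tissue was taken is not given in the sources used here, and its part in these values was not tested.

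Promoters of the clock genes are shown because 4 of these genes were called in 1 direction and because the loop's activators are known to bind the E-box CACGTG. The 250 bases before the annotated start sites (RefSeq, GRCm38.p6) hold that 6-base motif, whose reverse complement is itself, in 6.0% of 32851 promoters and in 6 of the 19 windows of clock genes, counting alternative starts. Ciart holds it 3 times, at -116, -58 and -44 counted from the start site, and Bhlhe41 holds it at -153. The windows of Dbp and Nr1d1 do not hold these letters. Capitals mark the motif, and both windows are written 5′ to 3′ on the minus strand, Ciart from chr3:95882229-95882478 and Bhlhe41 from chr6:145865421-145865670.
Ciart: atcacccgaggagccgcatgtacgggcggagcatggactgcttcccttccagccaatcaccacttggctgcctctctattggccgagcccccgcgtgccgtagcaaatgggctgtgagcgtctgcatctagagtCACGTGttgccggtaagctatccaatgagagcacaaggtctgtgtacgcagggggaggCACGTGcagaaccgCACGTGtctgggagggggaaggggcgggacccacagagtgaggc
Bhlhe41: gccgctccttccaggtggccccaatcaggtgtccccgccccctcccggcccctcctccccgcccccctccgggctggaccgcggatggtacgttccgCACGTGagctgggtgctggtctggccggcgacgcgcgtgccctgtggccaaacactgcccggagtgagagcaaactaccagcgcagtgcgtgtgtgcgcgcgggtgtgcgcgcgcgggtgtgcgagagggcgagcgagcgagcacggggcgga
Among all called genes outside the liver transcripts, 7.8% of the windows of lower genes and 7.0% of those of higher genes held the motif, near the 6.0% of all promoters.

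Gene length went with the direction of the difference. The higher genes outside the liver transcripts had a median exonic length of 6.52 kb, the lower ones of 3.02 kb and all genes tested of 4.06 kb. Over genes with a mean of at least 5 CPM, split into 5 equal bins by length, the median log2 difference rose from -0.04 in the shortest bin (up to 2.77 kb) through -0.02, -0.01 and 0.01 to 0.02 in the longest (from 8.19 kb). The shortest bin held 7 higher and 41 lower calls and the longest 41 higher and 5 lower. In single libraries, the level of the longest against the shortest bin was -0.01 to 0.05 log2 in Q140 (median 0.04) and -0.11 to 0.05 in Q20 (median -0.03), a difference with p = 0.012 (exact permutation test, two-sided). Q20 males 3 and 4 and females 1 and 4 were the low ones, and they include the 3 libraries whose removal lowered the number of calls most. At 10 months the medians ran the other way, from 0.02 in the shortest to -0.01 in the longest bin. Taken over all 56 libraries of 6 months, the level of the longest against the shortest bin did not follow repeat length. Its medians were 0.04 in wild type, -0.03 in Q20, 0.01 in Q80, 0.03 in Q92, 0.003 in Q111, 0.04 in Q140 and -0.04 in Q175. With this measure as a covariate, which was added after the values were seen, 112 genes outside the liver transcripts were called, 47 higher and 65 lower, of which 76 were among the 236.

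**Figure D3:**
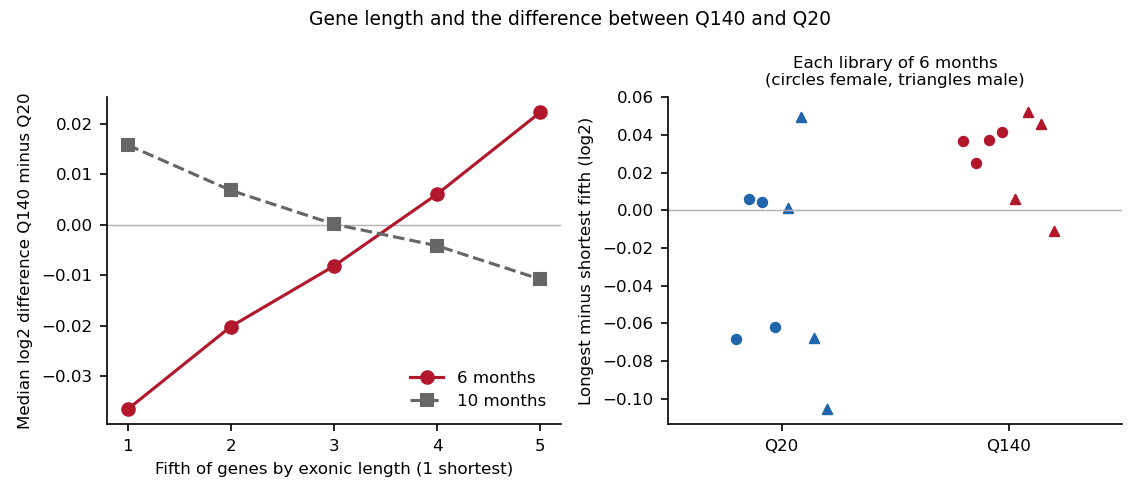
Left, median log2 difference between Q140 and Q20 in 5 bins of genes by exonic length, at 6 months (circles) and 10 months (squares). Right, level of the longest bin relative to the shortest in each library of 6 months, on the log2 scale, where 4 Q20 libraries lie below all 8 Q140 libraries.

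Transcripts of a few further kinds were called. The nuclear-retained RNAs Meg3 and Snhg11 and the splicing factor transcripts Srrm1, Srrm2, Son and Pnisr were higher. Meg3 stood at 7878 to 8475 against 7072 to 8248 CPM (0.14 ± 0.03) and Srrm1, the leading one, at 208 to 214 against 191 to 202 CPM (0.11 ± 0.02, edgeR adjusted p = 0.0014). In a list of 30 nuclear and splicing transcripts, made after the values were seen, 14 were higher and none lower, with a median of 0.10. Members were chosen from genes seen to be higher, so that this count follows from the choice and is read as no result (0.688% of all genes outside the liver transcripts were higher), and 1 remained called with the length measure as a covariate. Malat1, the most familiar nuclear-retained RNA, went the other way without passing (-0.08). Among genes of the mitochondrial respiratory chain, all 26 tested members of the nuclear-encoded list had a negative difference (median -0.05). Ndufa1 (29.99 to 32.7 against 32.6 to 36.5 CPM, -0.13 ± 0.03) and Ndufa4 (137 to 150 against 150 to 161 CPM, -0.11 ± 0.03) were called, where 0.659% of all genes were lower. In a list of 27 mitochondrial import and proteasome genes made after the values were seen, 6 were lower, among them the import subunits Timm8b (-0.14) and Timm23 (-0.14) and the catalytic subunit Psmb5 (-0.11), and 26 of 27 differences were negative. That count too follows from the choice of members. With the length covariate 1 of the 6 stayed called and neither Ndufa gene did. Ndufa1 and Ndufa4 were not called without the 4 libraries rich in Ttr (adjusted p = 0.093 and 0.080), and Ndufa4 was not called in 6 of the 16 fits that left out 1 library (up to 0.073, without Q140 male 4). The respiratory subunits encoded by the mitochondrial genome had no calls among 13. None of 26 ribosomal protein genes was called either, though 24 of these 26 had a negative difference.

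Chromosome 5, which carries Htt, held 25 called genes outside the liver transcripts among 1047 tested (2.39%, against 1.35% over all chromosomes), 13 higher and 12 lower. Their share was 4.13% within 5 Mb of Htt (5 of 121, Htt included), 5.33% from 5 to 30 Mb away (9 of 169) and 1.45% beyond. Positions are those of GENCODE M21 on GRCm38, where Htt lies at 34761740 to 34912534. A block of 4 gene models between 26007027 and 26105362, 8.66 to 8.75 Mb before Htt, had 4 of the 5 largest increases among the 236 genes (the other was Wt1 on chromosome 2, at 1.27). Gm5067, a processed pseudogene, stood at 1.14 to 2.03 CPM in Q140 and 0.38 to 0.81 in Q20 (1.43 ± 0.28, edgeR adjusted p = 0.00048), and Gm10471, a protein-coding model, at 0.27 to 0.58 against 0.03 to 0.22 CPM (1.74 ± 0.38). Gm5862 and 5031410I06Rik differed by 1.09 and 1.63. All 4 were low in counts, and whether they share reads with similar copies was not tested, so that their separate values are uncertain.

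Other genes near Htt were ordinary ones. Galnt11, an enzyme that starts O-linked glycans, at 25221904 to 25265918, stood at 37.9 to 41.1 against 32.3 to 35.5 CPM without overlap (0.20 ± 0.04), and its neighbour Actr3b, at 25759997 to 25850688, was lower as given above. Within 5 Mb, Drc1, a component of motile cilia at 30281388 to 30366695, was higher (16.99 to 19.3 against 14.4 to 16.6 CPM, 0.24 ± 0.05, edgeR adjusted p = 0.0012). Eif2b4, a subunit of the translation factor eIF2B (-0.12 ± 0.03), Nat8l, which makes N-acetylaspartate (-0.10 ± 0.03), and Trim54 (-0.80 ± 0.23, at 0.16 to 0.39 against 0.41 to 0.66 CPM) were lower. Without the 4 libraries rich in Ttr, Nat8l and Trim54 were not called (edgeR adjusted p = 0.076 and 0.13). Of the 16 fits that left out 1 library, Nat8l was not called in 10 (up to 0.099, without Q140 male 2), Trim54 in 10 (up to 0.10, without Q140 female 1) and Eif2b4 in 7 (up to 0.13, without Q20 female 4). Drc1 was not called with the token of the library name (0.089). Eif2b4 was not called with the length measure (edgeR adjusted p = 0.23), without the 2 Q140 libraries with the most Alb (0.078) or with only the 2 groups fitted (0.14). At the other ages, measured in separate libraries, 19 of the 25 genes (76%) had the same direction at 10 months and 21 of 25 (84%) at 2 months. Of the called genes not on chromosome 5, 61% and 67.1% did, and of all genes outside the liver transcripts 49.1% and 52.5%. The log2 differences at 10 and 2 months were 1.22 and 1.78 for Gm5067, 0.18 and 0.26 for Drc1, and 0.23 and 0.15 for Galnt11. None of these was called there.

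Levels in the other genotypes of 6 months placed Q140 on a grade for some genes and not for others. The wild-type libraries, which stood apart in their mitochondrial share (11.7% to 12.3% of counts) and in the form of their library names, are part of that series. Enpp6 had means of 4.06 ± 0.48 CPM (SD, n = 8) in Q92, 4.20 ± 0.47 in Q20, 4.48 ± 0.53 in Q80, 4.68 ± 0.48 in wild type, 5.08 ± 0.56 in Q111, 5.85 ± 0.38 in Q140 and 6.68 ± 0.57 in Q175. The first 4 lay within an SD of their neighbours, and the step from Q111 to Q140 and that from Q140 to Q175 were each larger than an SD. Scn4b fell from 106 ± 8.09 in Q111 through 97.3 ± 5.09 in Q140 to 78.4 ± 5.29 in Q175, below the 125 to 133 of wild type, Q20, Q80 and Q92. Gabrd, at 60.9 ± 1.93 CPM in Q140 and 54.9 ± 3.37 in Q175, was at 65.0 to 68.4 in the others, Q111 (68.4 ± 1.63) included. Penk had 90.8 ± 8.82 in Q111, 84.2 ± 9.08 in Q140 and 76.3 ± 5.30 in Q175, neighbours within an SD of each other, against 104 to 124 in the rest. Cx3cr1 did not follow such a grade: wild type (49.0 ± 2.27) was as high as Q140 (48.4 ± 1.99), and Q20 (42.8 ± 1.84) and Q92 (43.0 ± 2.36) were the lowest and did not differ beyond their SD. Srrm1 was 210 ± 2.16 in Q140 and 196 ± 7.37 in Q175. Gm5067 was at 0.46 ± 0.14 in wild type and 0.59 ± 0.13 in Q20 and at 0.93 to 1.58 in all 5 longer alleles.

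**Figure D4:**
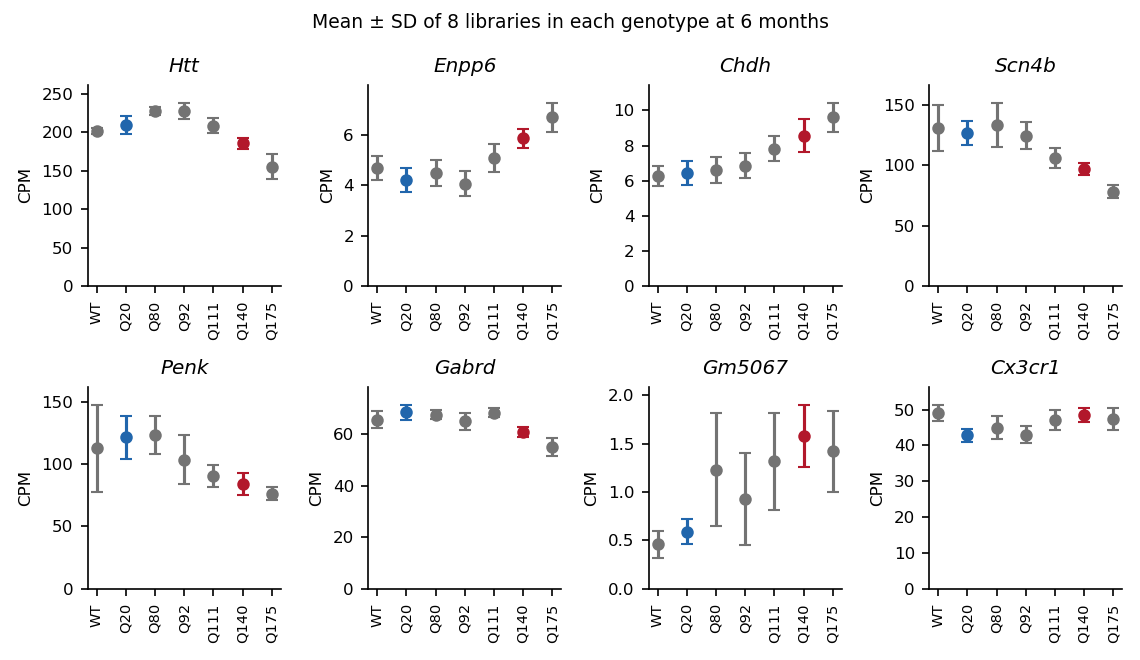
Mean level in CPM, with the SD of 8 libraries, of 8 genes in each genotype at 6 months, with Q20 in blue and Q140 in red. Enpp6 and Chdh are higher and Scn4b, Penk and Htt lower in Q140 and Q175, Gm5067 is higher in all 5 longer alleles than in wild type and Q20, and Cx3cr1 in Q140 (48.4) is at the level of wild type (49.0).

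Whether the differences of 6 months recur was read from the 10-month and 2-month mice, which are other animals of the same alleles. At 10 months 22 of 17219 genes (0.128%) were called, and 10 of them were among the 236 genes, which is 45.5% of the 10-month calls and 4.24% of those of 6 months. All 10 had the same direction: Enpp6 (0.61), Chdh (0.48), Plpp2 (0.42), Slc45a3 (0.82) and Il17rb (0.64) were higher, and Car2 (-0.20), Arpp21 (-0.21), Gpr153 (-0.34), Il33 (-0.28) and Tmem40 (-0.66) lower. Enpp6 stood at 5.21 to 7.89 CPM in Q140 and 2.49 to 5.28 in Q20 there. Il33, an alarmin cytokine of oligodendrocytes and astrocytes, stood at 51.3 to 58.7 against 63.9 to 74.2 CPM at 10 months and at 46.9 to 56.02 against 53.03 to 60.9 CPM at 6 months (-0.18 ± 0.04). Of the 235 genes tested at both ages, 147 (62.6%) had the same direction, against 49.1% of all 17060 genes outside the liver transcripts, and the median difference at 10 months was 0.02 in the direction of 6 months where it had been 0.16. Scn4b (-0.11) and Gabrd (-0.12) were not called at 10 months, and Ciart (0.06) and Cx3cr1 (-0.04) had the other sign.

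**Figure D5:**
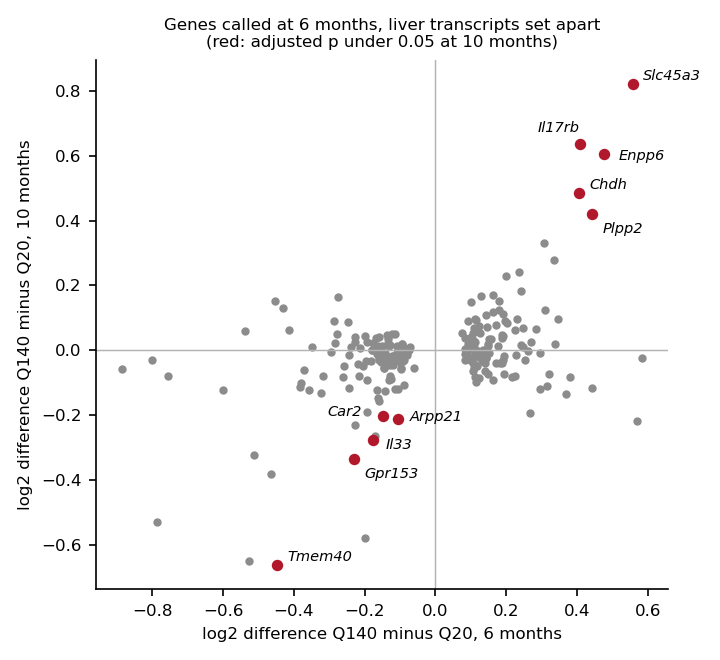
Log2 difference between Q140 and Q20 at 10 months against that at 6 months for genes called at 6 months, liver transcripts set apart; 229 genes are plotted and 6 lie beyond 1 log2 unit on an axis. The 10 genes in red were called at both ages and lie in the quadrants of equal sign, while most others are near 0 at 10 months.

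At 2 months no gene was called (0% of 17194; 398 had an unadjusted p under 0.05, and DESeq2 called 4). Of 235 genes, 162 (68.9%) had the direction of 6 months, against 52.5% of all genes, with a median of 0.02. Enpp6 (0.07) and Chdh (0.02) were near 0. A direct test of the change in the Q140 difference from 6 to 10 months called 19 genes of 17169 (0.111%), all of them liver transcripts or genes that followed Alb, with Cps1 (-3.62 ± 0.48), Gnmt (-2.10 ± 0.34) and Fbp1 (-2.52 ± 0.42) leading. No gene outside them was called by edgeR, in which 1077 of all genes had an unadjusted p under 0.05, while DESeq2 called 60 genes, 8 of them with a higher difference at 10 months.

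Females and males were compared within the 16 libraries. No gene passed the test of the difference between the sexes with edgeR (0% of 16831; 1644 had an unadjusted p under 0.05), and DESeq2 called 73. Scn4b differed by -0.40 in females and -0.36 in males, Enpp6 by 0.52 and 0.44, Gabrd by -0.16 in both, and Htt by -0.20 and -0.14. Ciart differed by -0.86 in females and -0.18 in males and Dbp by -0.40 and -0.23, and these gaps between the sexes did not pass.

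Of the 51 named genes outside the liver transcripts that were called, 23 were called in every one of these fits: without each of the 16 libraries in turn, without the 2 Q140 libraries with the most Alb, without the 4 libraries rich in Ttr, with the length measure, with a token of the library name and with only the 2 groups. Among the higher ones these were Enpp6, Chdh, Plpp2, Abca8a, Cdr1, Col12a1, Focad, Nrbp2, Plxnb3, S100b, Slc25a27 and Srrm1. The lower ones were Actr3b, Atp1b1, Camk2b, Gabrd, Gpr153, Ptprv, Scn4b, Sec14l1, Tcap, Tmod1 and Tuba8. Other fits are not part of this count, among them those with the liver covariate or with another reference group. None of the 23 was called with the liver covariate. The fits given beside single genes above do not list every fit in which a gene was not called. Against Q92, 31 of all 54 named genes kept their direction but were not called. Against wild type, Camk2b and Sec14l1 had the other sign.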

How the data were processed

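Cortex mRNA was sequenced on Illumina HiSeq machines, per the labels' protocols. The authors deposited estimated counts and FPKM per gene. Per the submitters' processing notes CASAVA 1.8.2 was used. The aligner, the quantifier and the build were not given in the sources used here. Of 39179 gene IDs, 37693 matched a symbol in GENCODE M21, and the others held 0.26% of the counts. Since 17.7% of the deposited count values were not whole, counts were rounded. No pair of libraries within either group agreed within sampling noise.

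Genes were filtered by genotype (filterByExpr, minimum count 10, minimum total 15), scaled by TMM and tested with edgeR 4.0.16 (quasi-likelihood, robust, sex as a covariate, R 4.3.3) over the 56 libraries of 6 months, with Benjamini-Hochberg adjustment over all genes tested and a threshold of 0.05. The biological coefficient of variation was 0.069. Levels are CPM, counts scaled to TMM-adjusted library totals, and summed levels and length measures were compared by exact permutation tests (scipy 1.17.1). Alternatives were DESeq2 1.42.0, limma 3.58.1 on log2 of the deposited FPKM with 0.1 or 1 added, other filters, scalings, covariates and reference groups, a replicate block, and leaving out libraries. The scripts were tested on simulated data. Promoter sequences and start sites came from RefSeq (GRCm38.p6), and positions from GENCODE M21.

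Members, gene lists and tests were chosen with earlier results of these data known. Named genes were the 12 called each way with the smallest p, of those with a mean of at least 1 CPM the 4 each way with the largest difference, up to 4 per list, called genes within 5 Mb of Htt, and up to 3 each way for sex and age differences, with official symbols. The rule as first written named 12 higher genes that all followed Alb. After this was seen, such genes were set apart and the next 12 named. Other genes given with values, among them the markers, Galnt11, Il33, Tmem40, the gene models near Htt, Wt1 and the members of 2 added lists, were chosen after their values were seen.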

Additional observations from a re-analysis of the deposited data

Results flagged for a closer look

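A single library stood apart from the other 7 of its group, by Dixon's criterion, in 6 of 110 groups of 8 values examined, where chance gives about 1 in 20. Summed liver transcripts were 807 CPM in Q140 male 4 against 93.0 to 399 CPM in the other Q140 libraries, and Fbp1, a gluconeogenic enzyme that followed Alb, was 2.60 CPM in the same library against 0.48 to 1.34 CPM. The cAMP-regulated phosphoprotein gene Arpp21 was lowest there too, at 357 CPM against 390 to 415 CPM. Car2, the carbonic anhydrase of oligodendrocytes, was 126 CPM in Q140 female 2 against 140 to 149 CPM. Among Q20 libraries, Abca8a, a lipid transporter gene, was 10.6 CPM in male 1 against 12.5 to 13.3 CPM, and Itgam, the microglial integrin chain, was 32.3 CPM in female 3 against 26.0 to 27.97 CPM.

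The Q140 difference changed from 6 to 10 months for 3 named genes, all of liver. In edgeR's test of that change the log2 values were -3.62 for Cps1 of the urea cycle, -2.52 for Fbp1 and -2.10 for Gnmt, a methyltransferase of liver.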

How the results depend on the processing

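The 404 calls of 6 months became 179 against Q92 (91 higher, 88 lower), 6014 against wild type and 0 under the liver covariate, and 308 to 468 without single libraries. Outside the liver transcripts the 236 calls became 112 with the length measure as a covariate, 0 with the liver level, 5856 against wild type, 148 without the 2 Q140 libraries with the most Alb, and 148 to 302 without single libraries. With no filter on low counts they split into 201 higher and 98 lower, against 120 and 116. Genes called only in such other fits were not checked against Alb. The 201, and the 302 calls without Q20 male 2 (163 higher), can therefore include genes that follow it.

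Over all genes together, replicate numbers showed no pairing: correlations of same-numbered libraries ran from -0.16 to 0.14, and 3 of 8 Q140 libraries correlated best with their own number. Single genes could still go with the number. Egr1 was lowest in female 1 of both groups, at 138 CPM in Q140 and 239 CPM in Q20. With a replicate block 442 genes were called outside the liver transcripts, and 1 at 10 months and 2 at 2 months.

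At 10 months the 22 calls became 42 with DESeq2 and 7 with only the 2 groups fitted. At 2 months the 0 calls became 4 and 2. DESeq2 called 73 genes for the difference between the sexes, where edgeR called 0, and 60 for the change from 6 to 10 months, where edgeR called 19. The liver difference was 2.05 to 2.50 without single libraries.

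Of 54 named genes, 40 were called without every single library in turn. Directions turned against wild type for Sec14l1 (0.035), Camk2b (0.022), Eif2b4 (0.074), Nat8l (0.054) and Cx3cr1 (-0.015), against Q92 for Dlx1 (0.0039), and under the liver covariate for Fbp1 (-0.13). The causes were not tested. At 33835811 counts or more per library, genes under 1 CPM rest on few reads.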
